A study of Drosophila melanogaster with 9 samples.

Results

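The mitochondrial genome of Drosophila melanogaster contributed 37 of the 17611 genes counted here, found as every gene ID whose dm6 symbol begins with mt:. They are 13 protein genes, 22 transfer RNA (tRNA) genes and 2 ribosomal RNA (rRNA) genes, all of a single exon. The rule for members uses location and no measured value, although earlier results of these data were known when it was set. Of the 37, 23 lie on the plus strand and 14 on the minus strand, and 4 of the 13 protein genes (mt:ND1, mt:ND4, mt:ND4L and mt:ND5) are on the minus strand.

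Mitochondrial DNA is a small circle, inherited through the mother, that is copied and transcribed by proteins encoded in the nucleus. Long transcripts from both strands are cut, largely at the tRNAs that punctuate them, into rRNAs, tRNAs and messages, so genes transcribed together can still differ in how much of each product remains. The proteins it encodes are core subunits of complexes I, III, IV and V, which together with nuclear-encoded partners carry out oxidative phosphorylation.

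Whole first instar larvae were used, with 3 libraries in each of 3 groups. The first group was males of genotype roX1[ex6]roX2[9-4], which lack both roX noncoding RNAs (roX-KO males). The other groups were wild-type females and wild-type males, and the series asked how loss of the roX RNAs alters gene expression. The roX RNAs are components of the MSL complex, which raises transcription of the male X chromosome. The labels give no stock, cross, larval age in hours or number of larvae, and they do not say that libraries came from separate cultures, so p-values measure the spread between these libraries. Since mitochondrial DNA follows the maternal line, the maternal line of each group and its roX genotype or sex cannot be told apart. Each sample's extraction text speaks of male larvae, including those labelled female, and nothing states whether the female libraries were made alongside the others, so sex and preparation cannot be told apart.

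The 9 libraries held 17318293 to 18020359 gene counts each. The targeted genes followed the labels: roX1 had 63, 52 and 68 counts in roX-KO males against 5571, 4964 and 6002 in wild-type males, and roX2 had 0 in each roX-KO library against 150, 181 and 162. RNA was kept on oligo dT beads, so the values describe mitochondrial RNA that the beads retained. The preparation names no step that marks the strand and the strand setting of the counting is not given in the sources used here. Reads assigned to no gene were 0.914 to 0.996 times those assigned to one, and RNA from the 2 strands of a stretch cannot be told apart. Female 3 stood apart from the other 2 females, with a correlation of log2 CPM (counts scaled to a fixed library total) of 0.986 to each, against 0.995 to 0.997 between replicates elsewhere. Comparisons with the females are therefore also given without it. In whole larvae, fewer cells rich in mitochondria and less mitochondrial RNA per cell cannot be told apart.

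The share of gene counts on mitochondrial genes was 6.48%, 8.45% and 6.46% in the roX-KO male libraries, 6.56%, 5.70% and 8.06% in wild-type females, and 9.70%, 10.1% and 12.3% in wild-type males. Every wild-type male library lay above all 6 others, and the roX-KO male and female ranges overlapped. The means were 7.13% ± 1.14 in roX-KO males, 6.77% ± 1.19 in females and 10.7% ± 1.43 in wild-type males (SD, n = 3 each). The difference between roX-KO and wild-type males was −3.59 percentage points and that between females and wild-type males −3.94 (exact two-sided permutation p = 0.1 for each, the smallest that 3 against 3 allows). Without female 3 the female difference was −4.59 points (exact permutation p = 0.2, the smallest for 2 against 3).

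**Figure D1:**
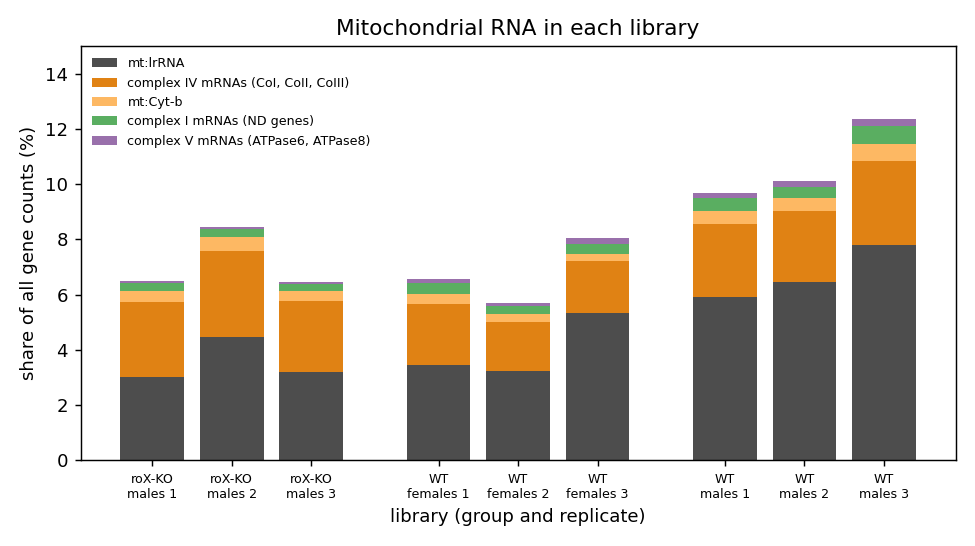
Share of all gene counts (percent, vertical axis) taken by classes of mitochondrial RNA in each of the 9 libraries, stacked by class, with roX-KO males at the left, wild-type females in the middle and wild-type males at the right. The stacks reach 6.46 to 8.45% in roX-KO males, 5.70 to 8.06% in females and 9.70 to 12.3% in wild-type males, and the dark segment (mt:lrRNA) differs most between the male groups while the orange segment (complex IV messages) is of like height in both.

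The lower share in roX-KO males lay mostly in 1 RNA, mt:lrRNA, the large rRNA of the mitochondrial ribosome. mt:lrRNA took 3.01%, 4.47% and 3.19% of gene counts in roX-KO males, against 5.91%, 6.47% and 7.78% in wild-type males. On average it differed by −3.17 points, of the −3.59 points of all mitochondrial genes. The groups did not overlap. With mt:lrRNA left out of both numerator and denominator, the mitochondrial difference between the male groups was −0.579 points (exact permutation p = 0.3). The 13 protein genes together took 3.57% ± 0.369 of gene counts in roX-KO larvae and 3.99% ± 0.498 in wild-type males, ranges that overlapped (exact permutation p = 0.4).

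Females differed from wild-type males in the messages as well. The protein genes took 3.10%, 2.46% and 2.72% of gene counts in females, below every library of either male group, with a mean of 2.76% ± 0.319, a difference of −1.23 points from wild-type males (exact permutation p = 0.1), or −1.21 without female 3 (exact permutation p = 0.2). The roX-KO males, at 3.47%, 3.98% and 3.26%, were also above the females (exact permutation p = 0.1). Between roX-KO males and females the difference was 0.357 points for all mitochondrial genes (exact permutation p = 0.7), or 1.00 points without female 3 (p = 0.6), and 0.813 points for the protein genes, or 0.793 without female 3. In the protein genes the groups did not overlap in either case.

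Gene by gene, counts were tested with edgeR's quasi-likelihood test across all genes, with p-values adjusted over every gene tested and 0.05 as the threshold. Of the 37 genes, 18 had enough counts for the test between the male groups, and the 19 others were all tRNA genes. In roX-KO males 15 of the 18 were lower than in wild-type males and 0 were higher, where 32.1% of all genes tested were lower and 31.4% higher. At an unadjusted p under 0.05 there were also 0 higher, as with DESeq2. The median log2 fold change of the 18 was −1.04, beside 0.02 over all genes. In 14 of the 18 the groups did not overlap, where they did not in 69.5% of all genes tested. Scaling to total counts instead of TMM factors moved the median of all genes to 0.25, with 21.4% of genes lower and 48.9% higher, and left 13 mitochondrial genes lower and 0 higher. In the authors' deposited table of the male libraries, 15 mitochondrial genes were also lower, where 26.9% of its tested genes were.

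**Figure D2:**
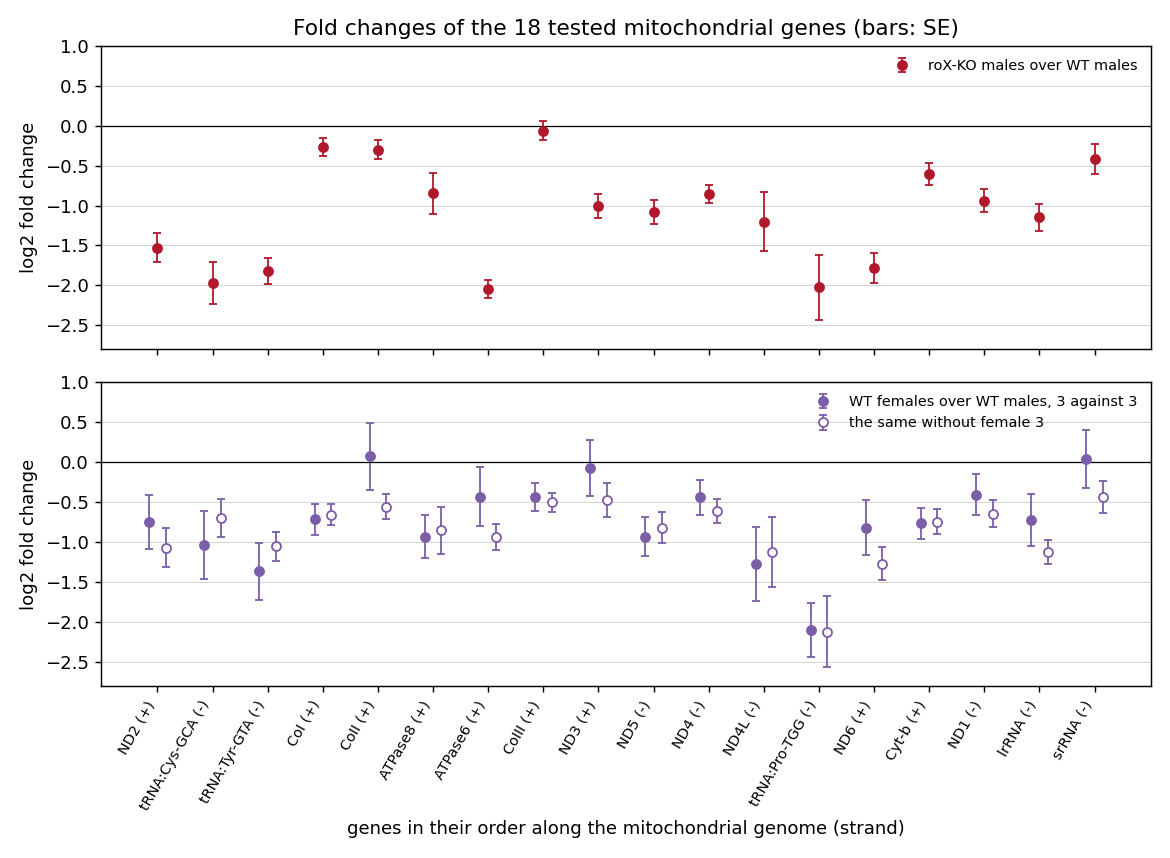
Log2 fold changes (vertical axis, with SE bars) of the 18 tested mitochondrial genes in their order along the genome, with each gene's strand in brackets. The upper plot shows roX-KO males over wild-type males, from −2.05 for mt:ATPase6 to −0.06 for its neighbour mt:CoIII, and the lower plot shows wild-type females over wild-type males with all libraries (filled) and without female 3 (open).

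The 2 rRNA genes differed in size of change. mt:lrRNA (FBgn0013686, positions 12735 to 14058 of the mitochondrial genome, minus strand, dm6) had 533113, 773448 and 573113 counts in roX-KO males, 619351, 582308 and 961671 in females, and 1054105, 1155012 and 1380687 in wild-type males. It fell in roX-KO males by 1.15 ± 0.17 on the log2 scale (SE, adjusted p = 6.4e-05), a change of −54.9%. mt:srRNA, the small rRNA, 14131 to 14916 on the same strand, had only 96, 140 and 131 counts in roX-KO males against 127, 115 and 179 in wild-type males, with overlapping groups and a log2 fold change of −0.42 ± 0.19 (adjusted p = 0.067). Per length, mt:lrRNA stood at 26858 ± 5994 CPM per kilobase of exon, without TMM factors, in roX-KO males against 50765 ± 7253 in wild-type males, and mt:srRNA at 8.82 ± 1.74 and 10.03 ± 2.47 (SD, n = 3 each). The 2 rRNAs thus differed in level by orders of magnitude in these bead-selected libraries. The log2 ratio of mt:lrRNA to mt:srRNA was 12.32 ± 0.20 in roX-KO males, 12.32 ± 0.13 in females and 13.08 ± 0.20 in wild-type males, so wild-type males were above both other groups with no overlap (exact permutation p = 0.1 for each). Without female 3 the ratio differed by −0.70 between females and wild-type males (exact permutation p = 0.2). This ratio was chosen after the values were seen.

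The genes of complex IV, cytochrome c oxidase, the enzyme that passes electrons to oxygen, had the log2 fold changes closest to 0 of the 18 genes between the male groups. mt:CoIII (4736 to 5524, plus strand) had 163494, 196036 and 153773 counts in roX-KO males, against 148956, 145929 and 167030 in wild-type males. The groups overlapped, and the log2 fold change was −0.06 ± 0.12 (adjusted p = 0.66), or 0.17 when scaled to total counts. mt:CoI (1474 to 3009, plus strand), the catalytic subunit, had 268111, 287299 and 262798 counts in roX-KO males against 271537, 254017 and 318768 in wild-type males, with a log2 fold change of −0.26 ± 0.11 (adjusted p = 0.057). It was lower by the test without a filter on low counts (adjusted p = 0.043), without roX-KO male 2 (adjusted p = 0.038) and without wild-type male 2 (adjusted p = 0.003). In the authors' deposited table its log2 fold change was −0.27 (adjusted p = 0.012). mt:CoII (3083 to 3767, plus strand), which carries the first copper site that receives electrons from cytochrome c, had 53335, 56219 and 44870 against 48832, 55863 and 58527 counts. It fell by 0.30 ± 0.12 (adjusted p = 0.04) in groups that overlapped in CPM, and scaled to total counts its adjusted p was 0.59. The call was also lost without roX-KO male 1, roX-KO male 3, wild-type male 2 or wild-type male 3 (adjusted p 0.0883 to 0.196). As a share of gene counts the complex IV genes were at 2.81% ± 0.279 in roX-KO males, 1.95% ± 0.213 in females and 2.75% ± 0.277 in wild-type males. The female range lay below both male ranges, which overlapped each other (exact permutation p = 0.7 between the male groups). The females differed by −0.804 points from wild-type males, or −0.772 without female 3.

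mt:Cyt-b (10499 to 11635, plus strand), cytochrome b and the only complex III subunit encoded in the mitochondrion, had 66220, 83957 and 63107 counts in roX-KO males against 87488, 82355 and 109475 in wild-type males. Scaled with TMM factors the groups did not overlap, and it fell by 0.60 ± 0.14 (adjusted p = 0.0026). Without wild-type male 2 the adjusted p was 0.0568.

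All 7 complex I genes (the mt:ND genes, subunits of NADH dehydrogenase, where electrons from NADH enter the chain) fell in roX-KO males. mt:ND6 (9971 to 10495, plus strand) had 34, 21 and 30 counts in roX-KO males against 81, 75 and 96 in wild-type males, with no overlap, and fell by 1.78 ± 0.19 (adjusted p = 4e-06). mt:ND2 (240 to 1263, plus strand) had 642, 539 and 569 against 1340, 1021 and 1962 counts and fell by 1.53 ± 0.18 (adjusted p = 1.4e-05). These plus-strand genes had the largest falls of the 7, mt:ND6 on at most 96 counts per library.

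The 4 complex I genes of the minus strand and mt:ND3 of the plus strand fell by 0.86 to 1.20. mt:ND5 (6409 to 8125) had 18570, 20285 and 16070 counts in roX-KO males against 32905, 26287 and 40933 in wild-type males and fell by 1.08 ± 0.15 (adjusted p = 4.2e-05). Its groups did not overlap, nor did those of mt:ND4 (8207 to 9545), with 17448, 18818 and 17036 against 25609, 24590 and 32812 counts and a fall of 0.86 ± 0.12 (adjusted p = 3.7e-05). mt:ND1 (11721 to 12659) fell by 0.94 ± 0.14 (adjusted p = 0.0001) and mt:ND3 (5608 to 5961) by 1.00 ± 0.16 (adjusted p = 0.00012). mt:ND4L (9545 to 9835), which shares 1 base with mt:ND4, had 27, 27 and 17 counts in roX-KO males against 52, 20 and 69 in wild-type males. Its groups overlapped although it passed the test (log2 fold change −1.20 ± 0.37, adjusted p = 0.012), and its adjusted p was 0.0501 without roX-KO male 3 and 0.0628 without wild-type male 3.

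Complex V, ATP synthase, held the largest fall of any of the 13 protein genes. mt:ATPase6 (FBgn0013672, 4062 to 4736, plus strand), the subunit that forms the proton channel, had 10750, 11393 and 10247 counts in roX-KO males, 25545, 18203 and 40476 in females, and 34342, 35688 and 44845 in wild-type males. The roX-KO male libraries lay far below the other groups and close to each other, and female 3 overlapped with wild-type males while females 1 and 2 were below them. It fell by 2.05 ± 0.12 against wild-type males (adjusted p = 1.7e-08), a change of −75.8%, and its log2 fold change was −2.14 to −1.93 with any 1 library left out. In the authors' deposited table its log2 fold change was also −2.05. mt:ATPase8 (3907 to 4068, plus strand), a small subunit of the same complex, had 15, 17 and 21 counts in roX-KO males against 26, 21 and 35 in wild-type males and fell by 0.84 ± 0.26 (adjusted p = 0.013), a call that was lost without roX-KO male 1 (adjusted p = 0.0535), without wild-type male 3 (adjusted p = 0.0674) and scaled to total counts (adjusted p = 0.0503). In the authors' deposited table its adjusted p was 0.0557.

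mt:ATPase6 lies between mt:ATPase8, with which it shares 7 bases, and mt:CoIII, with which it shares 1, all on the same strand. The log2 ratio of mt:ATPase6 to mt:CoIII counts was −3.93, −4.10 and −3.91 in roX-KO males, −2.34, −2.58 and −1.45 in females, and −2.12, −2.03 and −1.90 in wild-type males. The roX-KO males lay below every other library, at −3.98 ± 0.11 against −2.02 ± 0.11 in wild-type males, a difference of −1.96 (exact permutation p = 0.1). This pair was chosen after the values were seen. Its genes had the largest and the smallest fall of the messages between the male groups, so this p-value is no separate test. Against mt:CoII, on the other side, the ratio differed by −1.74. These ratios compare counts within a library and do not depend on how libraries are scaled. Reads that could belong to more than 1 gene were left uncounted by the authors. They numbered 428337 to 446018 in roX-KO males, 443689 to 453622 in females and 480366 to 492533 in wild-type males over all genes, and how many lie where mitochondrial genes meet was not tested.

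**Figure D3:**
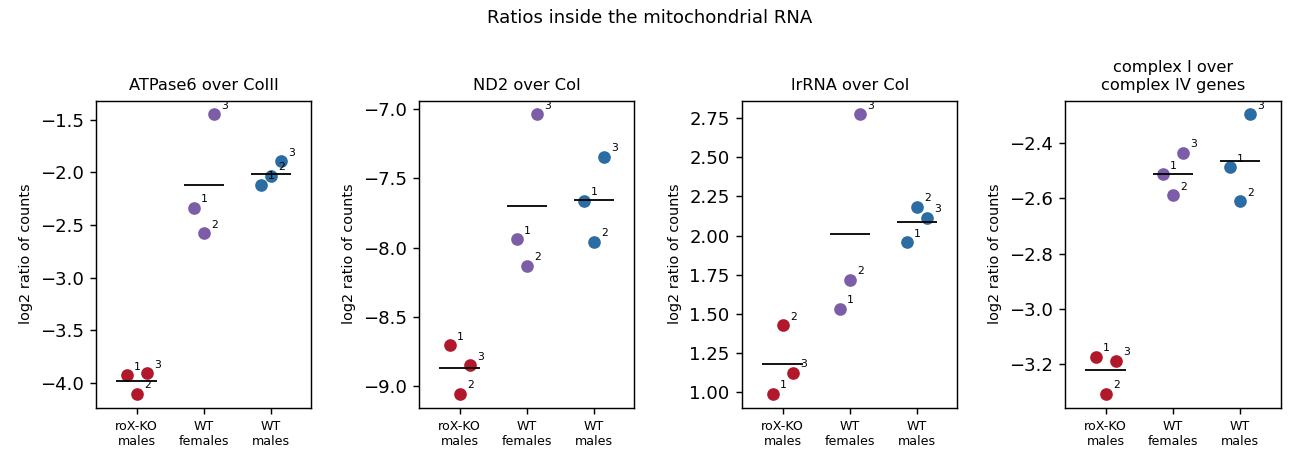
Log2 ratios of counts between mitochondrial genes or gene groups in each library (points, numbered by replicate) with group means (lines), in roX-KO males, wild-type females and wild-type males from left to right in each of 4 plots with their own vertical axes. roX-KO males lie below all libraries of both other groups in each plot, and female 3 lies highest among all libraries in the first 3. The ratios were chosen after the values were seen.

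The tRNA genes had few counts. Of the 22, 6 had 0 counts in every library, where a count of 0 allows a share of up to 1.66e-05 to 1.73e-05% of gene counts, and 19 were not tested, with at most 15 counts each over all 9 libraries. Of 1998 tRNA counts, 1931 fell on mt:tRNA:Tyr-GTA, mt:tRNA:Cys-GCA and mt:tRNA:Pro-TGG, which all lie on the minus strand. mt:tRNA:Tyr-GTA (1403 to 1468) had 68, 68 and 77 counts in roX-KO males against 229, 164 and 255 in wild-type males. mt:tRNA:Cys-GCA (1322 to 1383) had 55, 45 and 21 against 163, 98 and 149, and mt:tRNA:Pro-TGG (9903 to 9968) had 6, 2 and 4 against 17, 15 and 11. None of these groups overlapped, and in this order the log2 fold changes were −1.82 ± 0.16, −1.97 ± 0.26 and −2.03 ± 0.41 (adjusted p = 1e-06, 3.4e-05 and 0.00085). mt:tRNA:Tyr-GTA lies 5 bases from mt:CoI and mt:tRNA:Pro-TGG lies 2 bases from mt:ND6, genes of the opposite strand, and whether the counts come from the tRNAs or from longer RNA of either strand was not tested.

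Within the messages, the makeup of the mitochondrial RNA of roX-KO males differed from that of both wild-type groups. Of counts on the 13 protein genes, complex IV took 78.8%, 78.3% and 78.8% in roX-KO males, 70.6%, 72.0% and 69.2% in females, and 69.5%, 70.3% and 67.3% in wild-type males. The roX-KO males were above all other libraries. Females 1 and 2 were above every wild-type male, and female 3 lay among them. Complex I took 8.43% ± 0.454 in roX-KO males, 12.4% ± 0.407 in females and 12.5% ± 1.09 in wild-type males, and complex V took 1.72% ± 0.0556, 5.66% ± 2.26 and 5.38% ± 0.251 in the same order (SD, n = 3 each). In both classes the roX-KO males were below all other libraries (exact permutation p = 0.1 against each group), while the females differed from wild-type males by −0.15 points (p = 0.8) and 0.28 points (p = 1). The complex V value turned on female 3, at 8.26% against 4.61% and 4.11% in the other females. Without it the females differed from wild-type males by 2.27 points in complex IV and −1.02 in complex V, with no overlap (exact permutation p = 0.2 for each), and by −0.358 in complex I (p = 0.8). Without female 3 the roX-KO males differed from the females by 7.31 points in complex IV, −3.73 in complex I and −2.64 in complex V (exact permutation p = 0.2 for each). The mt:Cyt-b share was 11.2% ± 0.814 in roX-KO males, 11.4% ± 1.44 in females and 13.1% ± 0.422 in wild-type males.

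The log2 ratio of complex I to complex IV counts was −3.17, −3.31 and −3.19 in roX-KO males, −2.51, −2.59 and −2.44 in females, and −2.49, −2.61 and −2.30 in wild-type males. The difference was −0.76 against wild-type males and −0.71 against females, or −0.67 without female 3. The ratio of mt:ND2 to mt:CoI, both of the plus strand, differed by −1.22 between roX-KO and wild-type males, and that of mt:lrRNA to mt:CoI by −0.90. In neither did the male groups overlap (exact permutation p = 0.1), but these ratios were chosen after the values were seen. Genes annotated to either strand had large falls, in counts that cannot tell RNA of the strands apart. The minus-strand genes took 7.80% ± 0.424 of protein-gene counts in roX-KO males against 11.5% ± 0.949 in wild-type males. By annotation, mt:ATPase6, mt:ND6 and mt:ND2 of the plus strand fell more than any minus-strand message. Over the 26 per-library measures compared in each pair of groups (shares, ratios and sums of counts), the smallest Benjamini-Hochberg adjusted p was 0.124 between the male groups, 0.217 between females and wild-type males and 0.2 between roX-KO males and females. With a smallest exact p of 0.1, 3 libraries a group cannot give an adjusted p under 0.05.

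As shares of mitochondrial counts, tested with edgeR with those counts as library size, 3 genes were higher in roX-KO males and 6 lower, where 71.5% of all genes were higher on that scale and 5.59% lower. The higher ones were the complex IV genes, mt:CoIII at 0.75 ± 0.23 (adjusted p = 0.0018), mt:CoI at 0.57 ± 0.23 (adjusted p = 0.019) and mt:CoII at 0.52 ± 0.23 (adjusted p = 0.028). Most genes were called on this scale, so the adjustment over all genes did little. Unadjusted edgeR p-values were 0.0135 for mt:CoI and 0.0202 for mt:CoII. The lower ones were mt:ATPase6 at −1.21 ± 0.23 (adjusted p = 4e-07), mt:ND6 at −0.94, mt:ND2 at −0.66 and the 3 tRNAs at −0.99 to −1.22. The 4 minus-strand complex I messages, mt:ND3, mt:Cyt-b, mt:ATPase8 and both rRNAs were not called. This fit drew its estimate of spread from all genes tested, most of them nuclear, so a gene not called may still differ in its share. mt:lrRNA was at −0.34 ± 0.23 (adjusted p = 0.17). Its share of mitochondrial counts was 46.4 to 52.9% in roX-KO males and 60.9 to 64.0% in wild-type males, with no overlap. With protein-gene counts as library size, the rises of mt:CoI, mt:CoII and mt:CoIII were no longer called (adjusted p = 0.59, 0.72 and 0.163), and mt:lrRNA fell by 0.77 (adjusted p = 0.00076). That fit also drew its estimate of spread from all genes tested. The complex IV genes together still took 78.3 to 78.8% of protein-gene counts in roX-KO males and 67.3 to 70.3% in wild-type males. The mt:CoI and mt:CoII calls were also lost when single libraries were left out, mt:CoI without roX-KO male 1 or 3 or wild-type male 1 or 2, and mt:CoII without roX-KO male 1 or 3 or wild-type male 1 (adjusted p 0.0524 to 0.172). The mt:tRNA:Pro-TGG call was lost without roX-KO male 2 or 3 or wild-type male 1 or 2 (adjusted p 0.062 to 0.164).

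Between females and wild-type males 1 gene was called on this scale, mt:tRNA:Pro-TGG, which was lower (−1.44 ± 0.52, adjusted p = 0.035), with 0 higher, where 2.2% of all genes were lower and 44.3% higher. Without female 3 that call was lost and mt:ND3 and mt:srRNA were higher, at 0.46 ± 0.22 (adjusted p = 0.047) and 0.50 ± 0.24 (adjusted p = 0.0496), where 2.92% of all genes were lower and 79.2% higher. With most genes called, the adjustment did little here as well: unadjusted edgeR p-values were 0.038 for mt:ND3 and 0.041 for mt:srRNA. Between roX-KO males and females mt:ATPase6 alone was called, at −1.37 ± 0.25 (adjusted p = 0.0012), with 0 higher, where 7.37% of all genes were lower and 4.46% higher. Without female 3, mt:ATPase6 (−1.19 ± 0.22), mt:ND3 (−0.61 ± 0.22) and the tRNAs for Cys (−1.36 ± 0.29) and Tyr (−0.86 ± 0.27) were lower and 0 higher, where 17.5% of all genes were lower and 7.56% higher. In these fits too, a gene not called may still differ in its share.

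Per unit of length the messages spanned a wide range, and mt:CoIII and mt:CoI had the highest means of the messages in every group. mt:CoIII stood at 12300 ± 1820 CPM per kilobase in roX-KO males, 8200 ± 818 in females and 10960 ± 848 in wild-type males, and mt:CoI at 10061 ± 659, 6428 ± 1347 and 10292 ± 1258 in the same groups. The ranges of these neighbours overlapped in wild-type males. Then followed mt:Cyt-b and mt:CoII, at 4600 ± 727 and 4461 ± 420 in wild-type males, which also lay within each other's spread. mt:ATPase6 came next in wild-type males at 3187 ± 486, above the 927 to 1268 of mt:ND1, mt:ND4, mt:ND5 and mt:ND3. In roX-KO males it stood at 906 ± 64.6, beside 543 to 777 for those complex I genes. mt:ND2 was far below its complex at 32.2 ± 2.72 in roX-KO males against 79.1 ± 26.5 in wild-type males, and mt:ND6, mt:ND4L and mt:ATPase8 were under 10 in every group.

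**Figure D4:**
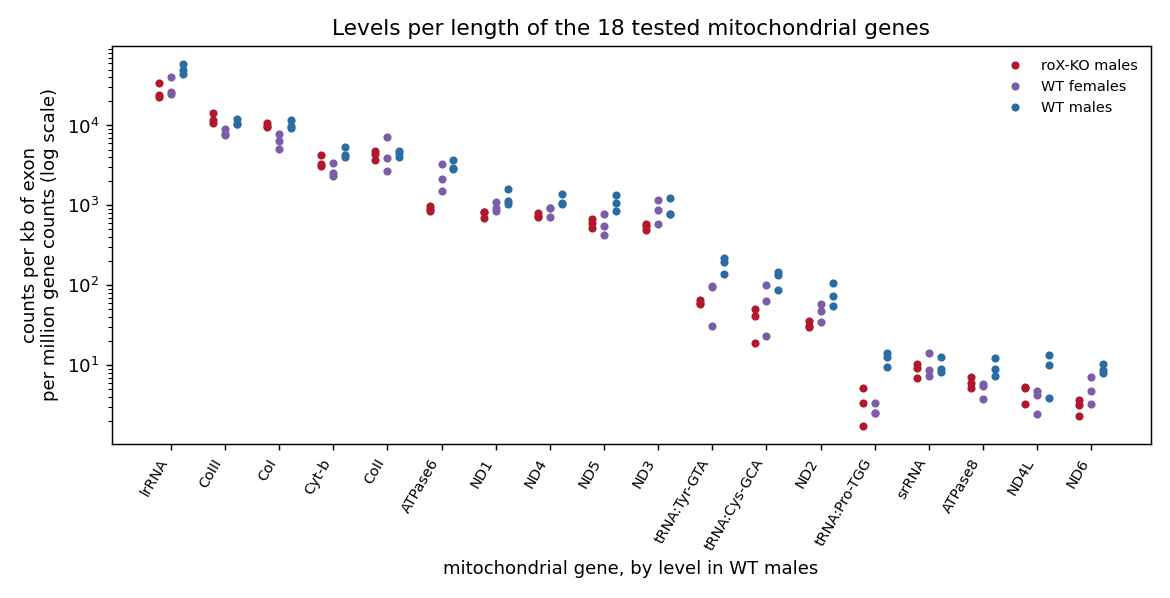
Levels of the 18 tested mitochondrial genes in CPM per kilobase of exon (log axis), ordered by their level in wild-type males, with 1 point per library and roX-KO males, wild-type females and wild-type males from left to right within each gene. Points of mt:lrRNA lie near 26858 in roX-KO males against 50765 in wild-type males on average. Values are without TMM factors. On this scale roX-KO males are set apart at mt:ATPase6 but overlap with wild-type males at mt:CoIII, mt:CoI, mt:CoII and mt:Cyt-b, among others.

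In females, 6 of 18 mitochondrial genes were lower than in wild-type males and 0 higher, where 11.2% of all genes tested were lower and 10.8% higher. At an unadjusted p under 0.05 there were also 0 higher, as with DESeq2. The median was −0.74, beside 0.04 over all genes, and the groups did not overlap in 9 of 18 genes, where they did not in 41.8% of all genes tested. The 6 were mt:CoI (−0.72 ± 0.19, adjusted p = 0.039), mt:Cyt-b (−0.77 ± 0.19, adjusted p = 0.032), mt:ND5 (−0.93 ± 0.24, adjusted p = 0.034), mt:ATPase8, mt:tRNA:Tyr-GTA and mt:tRNA:Pro-TGG. mt:lrRNA was at −0.73 ± 0.33 (adjusted p = 0.17) and mt:ATPase6 at −0.43 ± 0.37 (adjusted p = 0.46). Scaled to total counts, 2 genes were lower, where 9.97% of all genes were.

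The count of calls turned on single libraries: without any 1 of the others, females 1 and 2 and wild-type males 1, 2 and 3, only 1 to 3 genes were lower. Without female 3 15 of 18 genes were lower and 0 higher (of all genes 26.1% were lower and 26.1% higher), with a median of −0.78, and mt:lrRNA was at −1.13 ± 0.15 (adjusted p = 0.00016), mt:ATPase6 at −0.94 ± 0.16 (adjusted p = 0.001) and mt:CoII at −0.56 ± 0.16 (adjusted p = 0.013). Female 3 had 87706 mt:CoII counts against 48013 and 33014 in the other females, but 140868 mt:CoI counts against 214060 and 177065. Its log2 ratio of mt:CoII to mt:CoI was −0.68, while the other 8 libraries lay between −2.55 and −2.16. It also had the highest mt:lrRNA share of mitochondrial counts of all 9 libraries, at 66.2%, against 52.7% and 56.8% in the other females. That share averaged 49.6% ± 3.23 in roX-KO males, 58.6% ± 6.92 in females and 62.7% ± 1.57 in wild-type males. The female difference from wild-type males was −4.08 points (exact permutation p = 0.4), or −7.90 points without female 3 (p = 0.2), and the roX-KO male difference was −13.1 points (p = 0.1).

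Set against females, roX-KO males had 1 lower gene of 17 tested and 0 higher, where 16.6% of all genes tested were lower and 10.7% higher. The lower gene was mt:ATPase6, at −1.61 ± 0.35 (adjusted p = 0.015), and this call was lost without any 1 of roX-KO males 1, 2 and 3 (adjusted p at most 0.0737). At an unadjusted p under 0.05 there were also 0 higher, while DESeq2 called 4 lower and 1 higher. Scaled to total counts, mt:ATPase6 was lower and mt:CoI and mt:CoIII were higher, at 0.65 ± 0.18 (adjusted p = 0.041) and 0.58 ± 0.16 (adjusted p = 0.035), where 11.7% of all genes were lower and 15.9% higher. With TMM scaling mt:CoI was at 0.44 ± 0.19 (adjusted p = 0.12) and mt:CoIII at 0.37 ± 0.20 (adjusted p = 0.2). The groups did not overlap in either, and in all they did not overlap in 6 of the 17 genes, where they did not in 54.9% of all genes tested. Without female 3, 5 genes were lower and 2 higher (of all genes 31.6% were lower and 30% higher): mt:ATPase6 fell by 1.12 ± 0.14 (adjusted p = 0.0006), mt:ND1, mt:ND2 and the tRNAs for Cys and Tyr by 0.31 to 1.29, and mt:CoI and mt:CoIII rose by 0.37 ± 0.09 and 0.42 ± 0.13. The log2 ratio of mt:ATPase6 to mt:CoIII differed by −1.86 (exact permutation p = 0.1), or −1.52 without female 3 (exact permutation p = 0.2). The male and female comparisons share the wild-type males or the roX-KO males, so their values are given side by side and not compared as independent.

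Genes of the nucleus that act on mitochondrial DNA and RNA were lower in part in roX-KO males, where 32.1% of all genes were lower and 31.4% higher, or 27% and 34.8% of nuclear genes off the X. Of 7 tested transcription genes, 4 were lower and 0 higher than in wild-type males, with a median of −0.29, or −0.05 scaled to total counts, where 2 were lower and 2 higher. Among them PolrMT, the mitochondrial RNA polymerase, was at −0.29 ± 0.08 (adjusted p = 0.0057), mTTF, a transcription termination factor, at −0.60 ± 0.10 (adjusted p = 0.00014), and mRpL12, a ribosomal protein also placed in that list, at −0.71 ± 0.10 (adjusted p = 4.9e-05). Of 8 tested genes of RNA processing and decay, 7 were lower, with a median of −0.48, or 5 of 6 with a median of −0.42 off the X. They included the X-linked scu, relative of a subunit of human mitochondrial RNase P, at −0.996 ± 0.084 and PNPase, an RNA-degrading enzyme, at −0.49 ± 0.07. Of 7 genes for replication and packaging of mitochondrial DNA, 4 were lower and 1 higher, among them EndoG, a mitochondrial nuclease, at −0.62 ± 0.09, and the higher one was Top3alpha, a topoisomerase, at 0.63 ± 0.11 (adjusted p = 0.00033). These lists share genes: TFAM is also in the transcription list and Suv3 in that of RNA processing and decay.

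The partners of the mitochondrial messages in the nucleus were lower as well. Of 72 tested nuclear genes of oxidative phosphorylation, roX-KO males had 66 lower and 1 higher (median −0.49), or 45 lower scaled to total counts. Of 72 mitochondrial ribosomal protein genes they had 67 lower and 1 higher (median −0.61). Of all genes tested 32.1% were lower and 31.4% higher, or 21.4% and 48.9% scaled to total counts. By complex, 30 of 33 tested genes of complex I, 3 of 4 of complex II, 9 of 10 of complex III, 11 of 12 of complex IV and all 13 of complex V were lower. Of the oxidative phosphorylation genes 11 lie on the X, and all 11 were lower with a median of −1.11, where 58.9% of all tested X genes were lower. The 61 on other chromosomes had a median of −0.46 and 55 were lower, where 27% of the other nuclear genes were. For complex IV the nuclear subunits had a median of −0.46, with COX6B at −1.11 ± 0.10 and COX7C at −0.51 ± 0.08, while mt:CoI, mt:CoII and mt:CoIII were at −0.26, −0.30 and −0.06. For complex V the nuclear median was −0.50 and mt:ATPase6 was at −2.05.

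In females the same nuclear genes of oxidative phosphorylation had a median of 0.17 against wild-type males, with 1 higher and 1 lower of 72, or −0.17 without female 3, with 1 higher and 14 lower of 73. The mitochondrial ribosomal protein genes had 1 lower and 0 higher of 72, or 56 lower without it. Of all genes tested between females and wild-type males 11.2% were lower and 10.8% higher, or 26.1% and 26.1% without female 3. Of 15 tested aminoacyl-tRNA synthetase genes of the mitochondrion, which load its tRNAs, roX-KO males had 6 lower and 0 higher (median −0.19, and 0.04 scaled to total counts). All 15 lie off the X, where 27% of genes were lower and 34.8% higher. Over all genes tested between the male groups 32.1% were lower and 31.4% higher, and on the X 58.9% and 13.3%. Of 5 chaperone and protease genes 3 were lower, with the X-linked Hsp60A, the mitochondrial chaperonin, at −1.52 ± 0.08, and the 4 genes off the X had a median of −0.14 with 2 lower. Of 8 genes of mitochondrial dynamics and mitophagy 2 were higher and 2 lower, the lower ones both on the X and including Pink1, a kinase of mitochondrial quality control, at −0.35 ± 0.07. Of 4 biogenesis regulators 2 were higher, the X-linked ewg at 0.77 ± 0.09 and Ets97D at 0.42 ± 0.11, and 2 lower, with clu at −0.56 ± 0.10. Ets97D and ewg are the fly relatives of the vertebrate nuclear respiratory factors GABPA and NRF1.

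Markers of tissues moved between the same groups. Between the male groups 32.1% of all genes tested were lower and 31.4% higher. All 15 body wall muscle genes were lower in roX-KO males than in wild-type males, with a median of −0.92 and a summed level of 30897 to 32088 CPM in roX-KO males, 41850 to 52340 in females and 51282 to 53840 in wild-type males. Muscle is rich in mitochondria. Of 11 neuronal genes 10 were higher and 1 lower, with a summed level of 741 to 779 CPM in roX-KO males, 290 to 654 in females and 312 to 418 in wild-type males. All 7 cuticle genes were lower, with a sum of 651 to 708 CPM in roX-KO males, 1408 to 2155 in females and 1754 to 1852 in wild-type males. All 6 tested fat body genes were lower (median −2.52), with a sum over the 7 listed of 2187 to 2348, 1344 to 2073 and 2613 to 3242 CPM in the same groups. Only 4 of the 7 had enough counts for the test between roX-KO males and females, so part of this list had few counts there. Of 8 midgut genes 5 were lower and 2 higher (907 to 1028, 1785 to 2517 and 1337 to 1693 CPM), and of 6 germline genes 3 were lower and 2 higher (323 to 336, 110.1 to 205 and 177 to 235 CPM). No listed marker was at 0 counts throughout a group. In females 0 of 15 muscle genes were called lower and 0 higher against wild-type males by edgeR, or 5 lower and 1 higher without female 3, and the median was −0.18 with female 3. Of all genes tested, 11.2% were lower and 10.8% higher in females, or 26.1% and 26.1% without female 3. In females 5 of 6 germline genes were lower than in wild-type males (median −1.43), as were 4 of 6 fat body genes (median −1.33), and 4 of 8 midgut genes were higher (median 0.68). Of the other lists 2 of 7 cuticle genes and 1 of 11 neuronal genes were higher. Without female 3 there were 5 lower germline genes, 6 lower of 7 fat body genes, 5 higher and 1 lower midgut genes, 3 higher cuticle genes and 9 higher neuronal genes. The part of these tissue markers in the mitochondrial values of roX-KO males or females was not tested.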

How the data were processed

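The authors deposited raw counts per gene for each of the 9 libraries and, for the male libraries, a table with FPKM, a mean signal per gene, log2 fold changes with a test score, and p-values before and after adjustment, per the file headers. From that table only fold changes and adjusted p-values were used. HISAT2 2.2.1, SAMtools 1.13, HTSeq 2.0.2, DESeq2 and dm6 are named in the submitters' processing notes, without settings. The annotation (dm6) matched 17556 of the 17611 IDs. Depth was 17318293 to 18020359 gene counts per library, and limits on counts of 0 (3 counts of the total) cover counting error only. Lines for unassigned reads stayed out of library sizes; reads without a gene were 45.7 to 47.9% of all reads.

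Each comparison was fitted on its 6 libraries with edgeR 4.0.16 (filterByExpr with a minimum count of 10 and total of 15, TMM, robust quasi-likelihood F-test) in R 4.3.3. SE were taken from the F statistic. Shares and log2 ratios were computed per library and compared with exact two-sided permutation tests (SciPy 1.17.1). The fit was tested on simulated data: between the male groups all 50 genes made to differ by each of −2, −1, 1 and 2 on the log2 scale were called. The genes made to differ had mean counts over 50. Every gene had the same dispersion and no library stood apart, so recovery at low counts or with a library like female 3 was not tested. Alternatives were total counts, scaling on nuclear genes, DESeq2 size factors, DESeq2 1.42.0, no filter, all 9 libraries in 1 fit, a replicate block and leaving out each library. The mitochondrial genes were all reported. From each of 19 gene lists up to 3 genes with the smallest adjusted p could be named, and 3 list entries had no match. PolG2, mtTFB1 and SLIRP1 had 0 counts in every library. Members and lists were chosen with earlier results of these data known, and the share-of-mitochondria fit and the ratios were chosen after the values were seen.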

Additional observations from a re-analysis of the deposited data

How the results depend on the processing

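Between roX-KO and wild-type males, the number of lower mitochondrial genes (15) was 12 to 17 with 1 library left out and 13 to 16 under the other settings, none was higher under any setting run, and the median stayed between −1.14 and −0.80. Its mt:CoIII log2 fold change was 0.17 scaled to total counts and −0.20 to 0.025 with 1 library left out. Replicate numbers did not pair the libraries: deviations of same-numbered libraries correlated at −0.013 to −0.009 for roX-KO and wild-type males, at 0.42, −0.62 and −0.46 for females and wild-type males and at 0.014 to 0.063 for roX-KO males and females. The deviation of female 3 correlated at 0.70 with that of wild-type male 2. With the replicate number as a block, the females against wild-type males had 1 lower gene in place of 6, mt:CoII at −0.10 and mt:srRNA at −0.028, and roX-KO males against females had 2 lower genes in place of 1. Females against wild-type males had 2 lower genes scaled to total counts and 1 to 15 with 1 library left out, where mt:CoII ranged from −0.56 to 0.37, mt:srRNA from −0.44 to 0.25 and mt:ND3 from −0.48 to 0.16. roX-KO males against females had 2 higher genes and a median of −0.19 scaled to total counts, 4 lower and 1 higher with DESeq2, and 2 lower in a fit of all 9 libraries. With 1 library left out there were 0 to 5 lower and 0 to 2 higher, with a median of −0.59 to −0.26. Their difference in mitochondrial share ran from −0.302 (without roX-KO male 2) to 1.00 points. Over the same fits mt:ND5 ranged from −0.28 to 0.046 (0.036 scaled to total counts), mt:ND4L from −0.10 to 0.27, mt:Cyt-b from −0.015 to 0.27, mt:ATPase8 from −0.039 to 0.20, mt:CoII from −0.67 to 0.24 and mt:srRNA from −0.68 to 0.00060. The cause of these shifts was not tested. Precision is limited by 3 libraries a group and, for mt:ND4L, mt:ND6, mt:ATPase8, mt:srRNA and the tRNAs, by low counts.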
